A study of Mus musculus with 6 samples.

Results

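The genes described here act at the G1 phase of the cell cycle: the D-type cyclins Ccnd1, Ccnd2 and Ccnd3, their kinases Cdk4 and Cdk6, the CDK inhibitors Cdkn1b and Cdkn2c, and the pocket proteins Rb1 and Rbl1. All probe sets to which the platform annotation gives 1 gene symbol, that symbol being one of these 9, were taken. They number 28 of the 45101 probe sets on the array, and 25 of them passed the filter on dim values that 27821 probe sets passed. The 9 genes were chosen by their measured values in this same comparison, above all a higher Ccnd1 and a lower Ccnd2 in GFP-positive cells. Their differences between the groups are therefore given as a description, with no p-value, and counts of calls among them stand only beside the share of all probe sets.

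The RNA came from heterozygous Noto-GFP mouse embryos of embryonic day 8.5 on a mixed 129S3;ICR background and of mixed sex, with a median of 6 somites. Tissue posterior to the boundary of somites I and II was pooled from 23, 39 and 52 embryos. Each pool was digested with 1% trypsin, and cell sorting gave 1 GFP-positive and 1 GFP-negative sample from it, with about 2600, 4300 and 6600 cells in the GFP-positive samples of pools 1, 2 and 3. Noto encodes a homeobox factor found in the node and early notochord, so the reporter marks those cells; the GFP-negative sample mixes all remaining cell types of the tissue, and both groups carry the reporter allele.

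D-type cyclins are the cyclins that growth signals induce; they bind CDK4 or CDK6, and the active kinase phosphorylates the retinoblastoma protein and its relatives. Phosphorylated pocket proteins release E2F factors, which turn on cyclin E and the genes of DNA replication. INK4 proteins such as p18 (Cdkn2c) block CDK4 and CDK6 directly, whereas CIP/KIP proteins such as p27 (Cdkn1b) bind cyclin-CDK complexes, most of all those of CDK2. The 3 D cyclins can replace one another in many cells, and embryonic tissues often use one more than the others.

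Values are array intensities from 1 colour, not log-transformed. Both arrays of pool 1 stood apart: the 3′ over 5′ signal ratios of the Gapdh and beta-actin controls lay between 14.0 and 22.7 there and between 1.60 and 2.75 on the other 4 arrays. Over the kept probe sets the GFP-negative array of pool 1 correlated at 0.964 with its GFP-positive partner, and at 0.938 and 0.914 with the other GFP-negative arrays. The labelled cell identity held on each pair: 7 of 7 measured node and notochord markers were higher in GFP-positive cells, with summed intensities of 7981 to 9992 against 240.6 to 730.5. The marker T was not measured, and Noto itself was not analysed here. Array medians lay between 19.8 and 28.0, and a value near them may be background. Because the samples are bulk RNA, fewer cells of a type and less RNA per cell cannot be told apart.

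Ccnd1, the cyclin D1 gene, was higher in GFP-positive cells by all 3 of its probe sets. The brightest, 1417420_at, had intensities of 2365, 3042 and 3390 on the GFP-positive arrays of pools 1, 2 and 3, and of 2039, 691 and 547 on the GFP-negative arrays. Probe set 1417419_at had 1386, 1450 and 1388 in GFP-positive and 911, 280 and 294.5 in GFP-negative cells. For both, the groups did not overlap, but the GFP-negative array of pool 1 lay nearer to the GFP-positive ones than the other 2 did. The third, 1448698_at, had 1121, 1314 and 1635 against 684, 631 and 766, so here the 3 GFP-negative arrays lay together.

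The log2 fold changes of Ccnd1, with the standard error (SE) of the fit over all 6 arrays, taken on log2(intensity + 32), were 1.62 ± 0.436 for 1417420_at, 1.65 ± 0.401 for 1417419_at and 0.92 ± 0.215 for 1448698_at. Within pools 1, 2 and 3 the difference was 0.21, 2.09 and 2.56 for 1417420_at and 0.59, 2.25 and 2.12 for 1417419_at. The difference was thus smaller in pool 1 than in the others for this pair of probe sets, and less so for 1448698_at, at 0.69, 1.02 and 1.06. Without pool 1 the values were 2.32, 2.18 and 1.04, and without its GFP-negative array alone they were 2.18, 2.17 and 0.92. On that array the summed node and notochord markers were at 240.6, below the 665.8 and 730.5 of the other GFP-negative arrays. The gap was mainly in Shh (47.0 against 348.4 and 417.8) and Krt19 (41.9 against 163.3 and 113.8). Foxa2 (30.6 against 27.3 and 25.6) and Nodal (40.9 against 36.8 and 53.1) were not lower in this way. The control ratios of pool 1 are those given above. The part of RNA quality or of sorting in the smaller difference of pool 1 was not tested.

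Ccnd2, the cyclin D2 gene, was lower on average in GFP-positive cells by all 7 of its probe sets. The brightest, 1434745_at, had 1141, 1756 and 1505 on the GFP-positive arrays and 2631, 2471 and 2441 on the GFP-negative arrays. All 3 GFP-negative arrays lay above all GFP-positive ones, and pool 1 held the lowest GFP-positive and the highest GFP-negative value. The log2 fold change was -0.78 ± 0.208 (SE), with -1.18, -0.49 and -0.69 within the pools and -0.59 without pool 1.

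The other 6 Ccnd2 probe sets differed in how far the groups separated. Probe set 1416123_at had 44.3, 91.0 and 83.6 in GFP-positive and 135.4, 137.7 and 188.3 in GFP-negative cells, and 1416124_at had 35.2, 87.6 and 42.4 against 106.6, 130.2 and 105.3. These are dimmer, and their groups did not overlap; their log2 fold changes were -0.84 ± 0.251 and -0.79 ± 0.255. For 1430127_a_at, 1448229_s_at and 1416122_at the groups overlapped, at -0.74 ± 0.338, -0.53 ± 0.271 and -0.48 ± 0.25, and each was lower in 3 of 3 pools. In pool 2 these had differences of only -0.21, -0.09 and -0.11.

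The exception was 1455956_x_at, a probe set of a type in which some probes can bind other sequences. It had 1157, 1232 and 919 in GFP-positive and 2294, 956 and 1053 in GFP-negative cells. Its mean difference of -0.27 ± 0.331 came from pool 1 (-0.97), while pool 2 had the opposite sign (0.35), and without pool 1 it was 0.08. Over the 6 arrays the log2 values of Ccnd2 probe sets correlated with each other between -0.0469 and 0.968, with a median of 0.859 over 21 pairs that share the same 6 libraries.

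**Figure D1:**
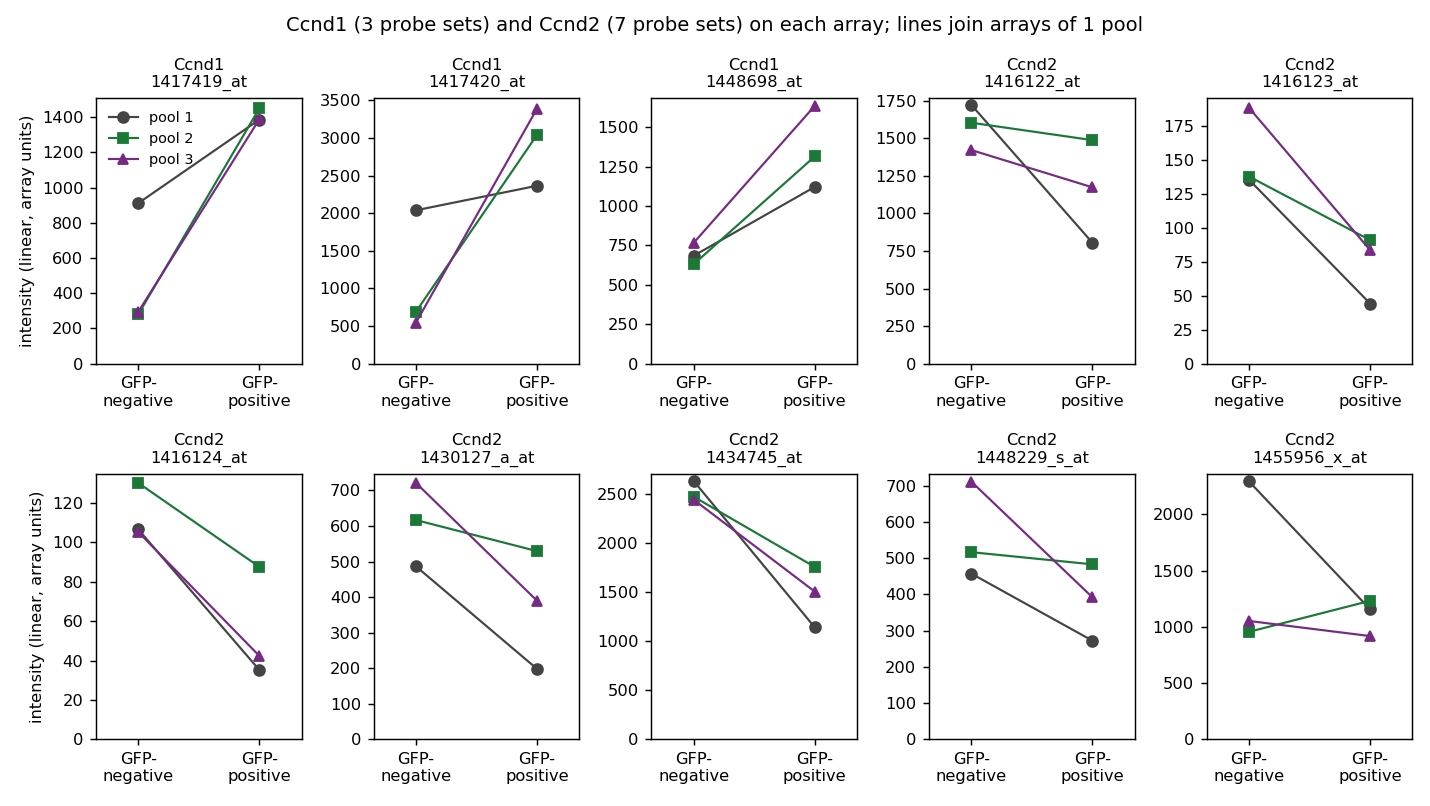
Intensity on a linear scale (y axis, starting at 0) of the 3 Ccnd1 and 7 Ccnd2 probe sets in GFP-negative and GFP-positive cells (x axis), with a line for each pool of embryos. All Ccnd1 lines slope up to the GFP-positive side, from 547 to 3390 in pool 3 for 1417420_at; all Ccnd2 lines slope down except that of pool 2 for 1455956_x_at, from 956 to 1232.

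By the brightest probe set of each, the differences of Ccnd1 and Ccnd2 had opposite signs within each pool. Among the other probe sets, Ccnd2 1455956_x_at had the sign of Ccnd1 in pool 2 (0.35). By the brightest ones, the log2 difference of Ccnd1 exceeded that of Ccnd2 by 1.39 in pool 1, 2.57 in pool 2 and 3.25 in pool 3. The pools divided it differently. In pool 1 most of it was the lower Ccnd2 (-1.18, against 0.21 for Ccnd1), and in pools 2 and 3 most was the higher Ccnd1. Levels of the pair of genes are not compared with each other, since probe sets differ in how well they bind.

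Ccnd3, the cyclin D3 gene, was lower on average in GFP-positive cells by 2 of its 3 probe sets, and the third was dim on all arrays. The brightest, 1415907_at, had 168.8, 352.3 and 392.5 in GFP-positive and 184.4, 612.0 and 865.6 in GFP-negative cells. Both arrays of pool 1 were low, and the groups overlapped, with -0.64 ± 0.519 over all arrays and -0.11, -0.74 and -1.08 within pools. With the pool as a term the SE was 0.214. Probe set 1444323_at had 8.45, 11.1 and 12.4 in GFP-positive and 47.9, 51.3 and 92.1 in GFP-negative cells. Its GFP-positive values lie below the array medians, so the size of its difference, -1.14 ± 0.204, rests on the offset. The difference was -1.54 with an offset of 16 and -0.76 with 64. The third, 1438805_at, lay between 3.61 and 18.7 on all arrays, below the array medians, at 0.29 ± 0.143.

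Cdk4, a kinase partner of the D cyclins, had similar intensities in both groups. Probe set 1422439_a_at had 2392, 3053 and 3185 in GFP-positive and 2409, 3080 and 3127 in GFP-negative cells, and its differences within pools were -0.01, -0.01 and 0.03. For 1422440_at they were 0.03, 0.11 and 0.02, and for 1422441_x_at 0.06, -0.18 and -0.25. Both arrays of pool 1 were lower than the other 4 by each probe set. Over all arrays the log2 fold changes were 0.0011 ± 0.198, 0.06 ± 0.319 and -0.12 ± 0.224.

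The promoter of Cdk4 is shown because Cdk4 is known as a target of MYC, which binds E-boxes together with MAX; the genes of that network are described further on. Of the 9 genes, 6 had an entry in the RefSeq promoter table (GRCm38.p6); Ccnd1, Ccnd2 and Rb1 had none. The 250 bases before the Cdk4 start site, chr10:127063285-127063534 on the plus strand, are printed 5′ to 3′ with each E-box (CACGTG, which reads the same on both strands) in capitals.

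Cdk4: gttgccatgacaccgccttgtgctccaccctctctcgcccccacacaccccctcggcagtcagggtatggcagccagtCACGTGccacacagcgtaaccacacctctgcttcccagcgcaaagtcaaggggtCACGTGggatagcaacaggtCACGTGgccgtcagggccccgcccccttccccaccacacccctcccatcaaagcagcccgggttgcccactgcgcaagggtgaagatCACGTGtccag

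The 4 E-boxes begin 172, 118, 98 and 11 bases before the start site. Of 32851 windows of 250 bases in the table, 6.02% held at least 1 such match and 0.0213% held at least 4. Among the 8 windows of the 6 genes, the one of Cdk6 held 1 further match. A match is a description of the letters, not a site shown to be bound.

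Cdk6, the other kinase partner of D cyclins, was somewhat higher in GFP-positive cells by both kept probe sets. Probe set 1455287_at had 618, 534 and 690.5 in GFP-positive and 506, 400.2 and 354 in GFP-negative cells, with no overlap and a log2 fold change of 0.52 ± 0.221. Probe set 1435338_at had 476, 352 and 256 against 300.1, 229.7 and 211.2, with overlap and 0.47 ± 0.266. Differences within pools lay between 0.24 and 0.90. The third probe set of Cdk6, at 1.94 to 19.8, was not kept.

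The CDK inhibitors among the members were dim. Cdkn1b, which encodes p27, had 119.5, 88.9 and 81.2 in GFP-positive and 129.4, 51.8 and 72.0 in GFP-negative cells by its brighter probe set, 1434045_at, at 0.19 ± 0.276. Its second, 1419497_at, had 65.4, 27.6 and 19.8 against 25.5, 5.32 and 2.20, higher in 3 of 3 pools (0.76, 0.68 and 0.60), though most of these values are near or below the array medians. Cdkn2c, which encodes p18, had 31.3, 37.6 and 28.5 in GFP-positive and 24.6, 54.5 and 77.3 in GFP-negative cells. It was higher in pool 1 (0.16) and lower in pools 2 and 3 (-0.31 and -0.85), so its mean of -0.34 ± 0.25 has no common direction.

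The pocket protein genes had log2 fold changes between -0.29 and 0.05, given here with the SEs of the fit without the pool as a term. Rb1, the retinoblastoma gene, had 221.2, 132.5 and 149.2 in GFP-positive and 226.1, 179.1 and 166.3 in GFP-negative cells, at -0.17 ± 0.241, and its other probe set, at 0.715 to 8.58, was not kept. Rbl1, which encodes p107, had 363.1, 268.3 and 286.4 against 478.0, 380.3 and 298.7 by its brightest probe set, at -0.29 ± 0.240. Its other kept probe sets gave 0.05 ± 0.192 and -0.20 ± 0.163, and another, at 0.327 to 5.94, was not kept. In all 4 kept probe sets of Rb1 and Rbl1 the groups overlapped. Within pools 1, 2 and 3 the differences were -0.03, -0.36 and -0.13 for Rb1. They were -0.37, -0.46 and -0.05 for the brightest Rbl1 probe set. For the other kept Rbl1 probe sets they were 0.23, -0.11 and 0.01 (1425166_at), and -0.24, -0.31 and -0.04 (1432604_at). With the pool as a term the SEs were 0.169 for Rb1 and 0.172 for the brightest Rbl1 probe set.

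Rbl1 is itself a target of E2F, and its promoter is shown as the E2F readout among the members. The 250 bases before its start site, chr2:157204535-157204784 on the minus strand of GRCm38.p6 from RefSeq, are printed 5′ to 3′ with the E2F match in capitals.

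Rbl1: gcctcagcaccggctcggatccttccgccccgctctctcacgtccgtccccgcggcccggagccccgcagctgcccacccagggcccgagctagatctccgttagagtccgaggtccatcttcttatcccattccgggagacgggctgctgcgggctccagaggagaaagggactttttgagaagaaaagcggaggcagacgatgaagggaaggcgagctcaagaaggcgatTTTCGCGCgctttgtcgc

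The motif searched was TTTCCCGC, TTTCGCGC, TTTGCCGC or TTTGGCGC on both strands, and the match begins 18 bases before the start site. It was found in 1.86% of all windows and in 1 of the 8 windows of the members.

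**Figure D2:**
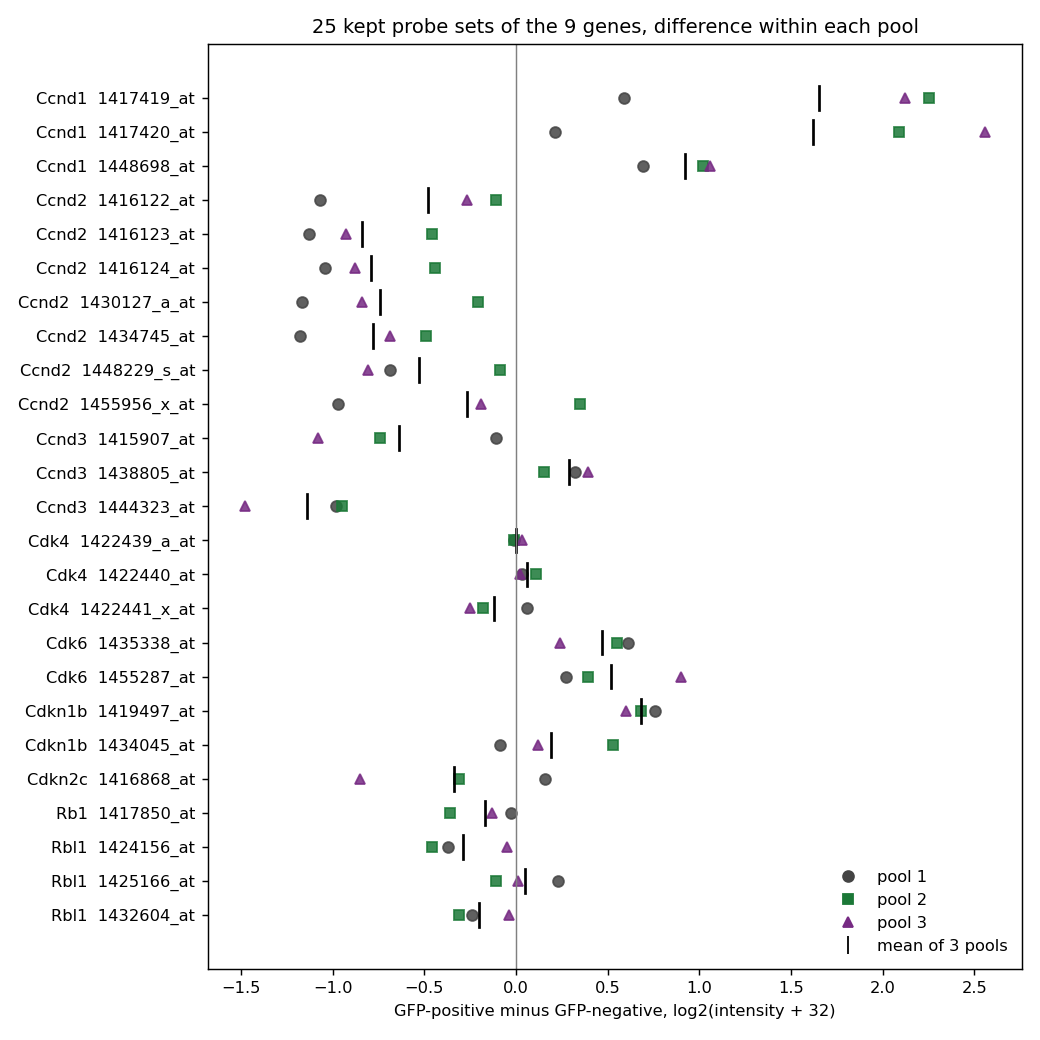
Difference between GFP-positive and GFP-negative cells within each pool, as log2(intensity + 32) (x axis), for the 25 kept probe sets (y axis); points are pools and black ticks their mean. Ccnd1 lies to the right in all pools (0.21 to 2.56), Ccnd2 to the left except for 1 point (0.35), and the 3 Cdk4 probe sets lie between -0.25 and 0.11.

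Over the 25 kept probe sets the median log2 fold change was -0.17, beside -0.0335 over all kept probe sets. The groups did not overlap, with GFP-positive higher, in 5 of the 25, beside 11.9% of all kept probe sets, and with GFP-positive lower in 4, beside 12.8%. The sign was the same in all 3 pools for 8 higher and 11 lower probe sets, beside 23.6% and 26.8%. At an adjusted p under 0.05 in limma, 1 of the 25 passed, Ccnd3 1444323_at, which was lower, beside 1.81% of all kept probe sets in either direction (0.55% lower and 1.26% higher). When the pool was added to the fit 8 passed, 4 in each direction, beside 9.86% in all and 4.93% in each direction. These were the 3 of Ccnd1 and 1 of Cdkn1b (1419497_at), higher, and 3 of Ccnd2 (1416123_at, 1416124_at and 1434745_at) and Ccnd3 1444323_at, lower. Without pool 1, 10 passed, where 14.2% of all kept probe sets were higher and 16.3% lower. As these genes were chosen with the comparison known, nothing is read from these counts.

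The rest of the G1 to S pathway was followed in 7 lists, each gene by its brightest kept probe set. Of 71 genes listed 65 were measured, and 2 passed in limma, the CDK inhibitor Cdkn1a, higher, and the cullin Cul1, lower. That is beside 2.64% of all 12628 genes (1.85% higher and 0.792% lower), and at an unadjusted p under 0.05 the lists had 5 higher and 8 lower, beside 12.0% and 9.67% of all genes. The same shares apply to the unadjusted counts given for each list. The median log2 fold change of the 65 was -0.07, beside 0.0111 over all genes. With the pool as a term 3 were higher and 8 lower, beside 6.97% and 5.38% of all genes (12.3% in all). Without pool 1, 13 were higher and 14 lower, beside 18.6% and 17.0%. The brightest probe set of each gene was chosen anew in that fit. For E2f5 it was another probe set, at -3.69 (limma adjusted p = 0.00403), while the one used over all 6 arrays had -0.03.

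Among the other CDK inhibitors, Cdkn1a was higher in GFP-positive cells. Of 6 genes listed (with the pocket protein Rbl2), Cdkn2a, Cdkn2b and Rbl2 were too dim to be kept. Of the 3 measured, 1 passed in limma, and Cdkn1a and Cdkn1c had an unadjusted p below 0.05. Cdkn1a, which encodes p21, had 354, 349 and 460.5 in GFP-positive and 162.8, 90.3 and 95.7 in GFP-negative cells. It rose by 1.53 ± 0.253 (SE, limma adjusted p = 0.0269), and its second probe set had 0.66 ± 0.318. Cdkn1c, the imprinted inhibitor p57, had 1907, 1750 and 2145 against 1448, 854 and 844, with no overlap. Its log2 fold change of 0.90 ± 0.25 did not pass in limma (adjusted p = 0.113) and did with the pool as a term (adjusted p = 0.0333) and without pool 1 (1.16, adjusted p = 0.000634). Cdkn2d, the INK4 protein p19, had 0.10 ± 0.181.

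The call of Cdkn1a depended on single arrays. In limma it held without pool 1 (adjusted p = 0.000246) and without the GFP-negative array of pool 1 (0.00266). It was lost without any other 1 array (adjusted p of 0.0532 to 0.168) and without pool 2 or 3 (0.677 and 0.504), while the log2 fold change stayed between 1.31 and 1.79.

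The E2F and DP factors, only some of which the pocket proteins hold back, had 10 of 10 measured and none past the threshold in limma. By unadjusted p (0.05) there was 1 in each direction. E2f1, an activating E2F, had 52.8, 103.2 and 125.0 in GFP-positive and 112.1, 650.0 and 714.1 in GFP-negative cells. It was thus high on the GFP-negative arrays of pools 2 and 3 only, at -1.78 ± 0.589 (limma adjusted p = 0.163, and 0.013 with the pool as a term); its other 2 kept probe sets had -0.88 and -0.38. E2f8, a repressive E2F, had 481, 882 and 954 against 521, 412.5 and 368, at 0.75 ± 0.291 (limma adjusted p = 0.22).

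Cyclin E and A, CDK2 and its activators had 8 of 9 measured and none past the threshold in limma, against 1 higher and no lower gene by unadjusted p (0.05). Ccne1, the cyclin E1 gene, had 395, 1101 and 1212 in GFP-positive and 537, 2880 and 3430 in GFP-negative cells. Both arrays of pool 1 were far lower than the others. Its log2 fold change was -1.08 ± 0.684 (limma adjusted p = 0.423, and 0.0267 with the pool as a term), but a second probe set of the gene went the other way, at 0.28 ± 0.236. Mnat1, a subunit of the CDK-activating kinase, had 0.81 ± 0.336, with -0.09 in pool 1 and 1.26 and 1.25 in pools 2 and 3.

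Of 10 genes for the turnover of D cyclins and p27, 1 passed in limma and had a lower level; it was also the only one by unadjusted p (0.05). Cul1, the scaffold of the SCF ubiquitin ligases, had 1537, 1187 and 1311 in GFP-positive and 2720, 3244 and 3966 in GFP-negative cells. It fell by 1.27 on the log2 scale, with an SE of 0.209 (limma adjusted p = 0.0264). The call held without pool 1, and without either array of pool 1, and was lost without any other array or pool (adjusted p of 0.105 to 0.698). Gsk3b, a kinase that marks cyclin D1 for export and decay, had -1.25 ± 0.564 by its brightest probe set (limma adjusted p = 0.278, and 0.0407 with the pool as a term) and the opposite sign by 4 of its 5 others. Fbxo31, a substrate receptor for cyclin D1, had 0.37 ± 0.248.

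Of the 7 MYC and MAX network genes measured, none passed in limma, and 1, Mxd4, was higher by unadjusted p (0.05). Mxd4, which pairs with MAX in place of MYC, had 166.6, 124.0 and 165.1 in GFP-positive and 80.2, 54.4 and 34.3 in GFP-negative cells, at 1.08 ± 0.247 (limma adjusted p = 0.0709, and 0.018 with the pool as a term). Its other 2 kept probe sets had 0.16 and -0.28. Max itself had 0.49 ± 0.224. The E-boxes of the Cdk4 promoter printed above are of the kind these factors bind, and the Cdk4 differences are those given there.

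Genes downstream of E2F were described by S phase and mitosis lists. Of 16 S phase genes measured, none passed in limma, and by unadjusted p (0.05) 2, Pola1 and Rrm2, were lower and none higher. Pola1, the catalytic subunit of DNA polymerase alpha, had 217.9, 183.7 and 162.9 in GFP-positive and 469.8, 341.5 and 310.2 in GFP-negative cells, at -0.87 ± 0.232, with -1.01, -0.79 and -0.81 within pools. It did not pass (limma adjusted p = 0.104) and did with the pool as a term (0.0197). Rrm2, the small subunit of ribonucleotide reductase, had 5556, 5575 and 5527 against 8756, 6498 and 7604, with no overlap. It was at -0.44 ± 0.163 (limma adjusted p = 0.196, and 0.0943 with the pool as a term), and its other 2 kept probe sets had -0.45 and -0.59. Cdc6, which loads the replicative helicase, had -0.50 ± 0.236 and did not pass by unadjusted p (0.0667 in limma). The list's median was -0.13.

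Of 11 G2 and mitosis genes measured, none passed in limma, while 4 (Mki67, Cenpf, Kif11 and Bub1) were lower and none higher by unadjusted p (0.05). The proliferation antigen Mki67 had 1081, 348 and 252 in GFP-positive and 1713, 1597 and 1349 in GFP-negative cells, so the GFP-positive array of pool 1 lay between the others. The list's median was -0.30, and with the pool as a term 3 genes, Mki67, Cenpf and the spindle motor Kif11, were lower; their log2 fold changes were -1.68 ± 0.453, -1.65 ± 0.39 and -0.98 ± 0.244. Bub1, a kinase of the spindle checkpoint, had -0.61 ± 0.207, with a limma adjusted p of 0.168, and of 0.0507 with the pool as a term. Cenpf, a kinetochore protein, had -0.45 in pool 1 and -2.23 and -2.28 in pools 2 and 3. Its other 2 kept probe sets had -0.83 and -0.73, with overlap and with 0.09 and 0.03 in pool 1. The other kept probe sets of Kif11 had -0.67 and -0.08, both with overlap, and that of Bub1 had -0.29.

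**Figure D3:**
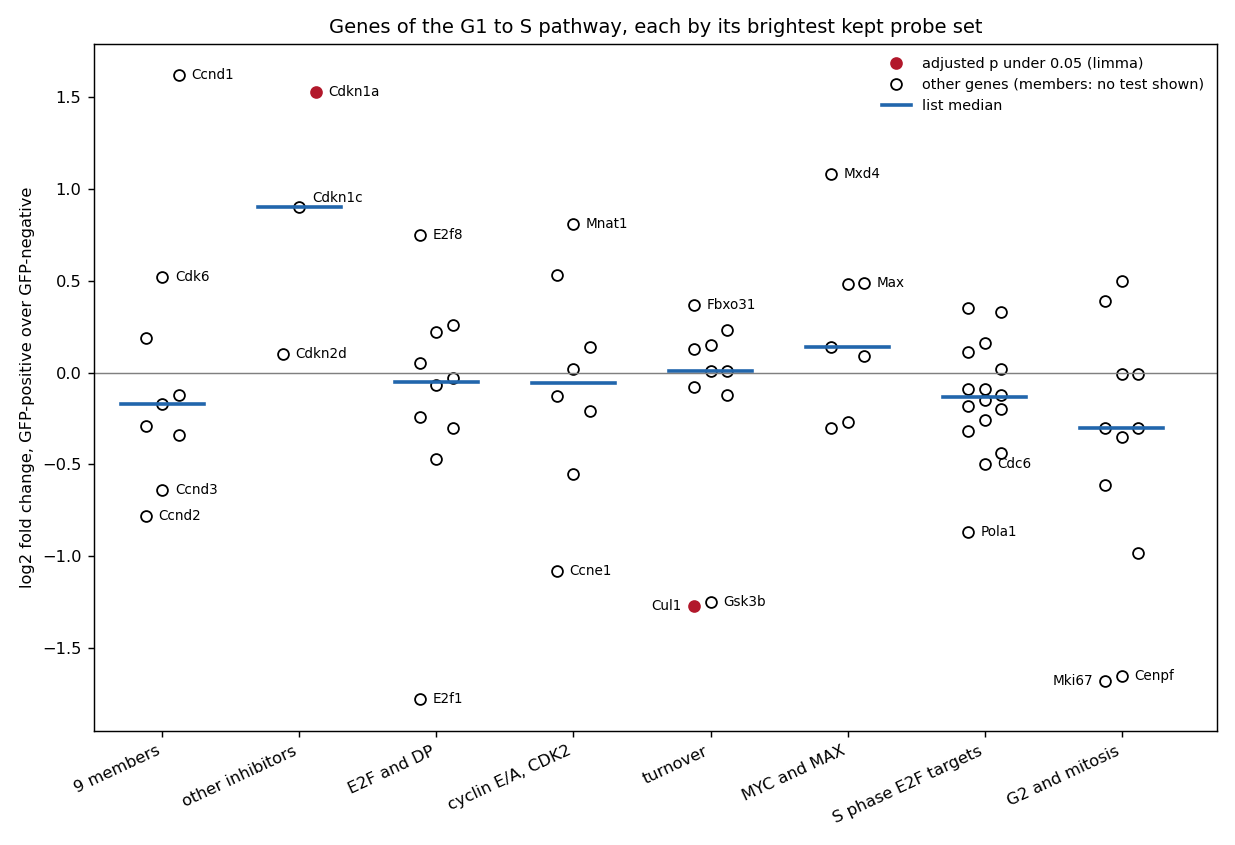
Log2 fold change of GFP-positive over GFP-negative cells (y axis) for the 9 genes and for 7 lists of the same pathway (x axis), each gene by its brightest kept probe set, with list medians as blue bars. Filled points are the 2 genes past the threshold in limma, Cdkn1a at 1.53 and Cul1 at -1.27, the medians of the lists other than the 3 further inhibitors lie between -0.30 and 0.14.

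**Figure D4:**
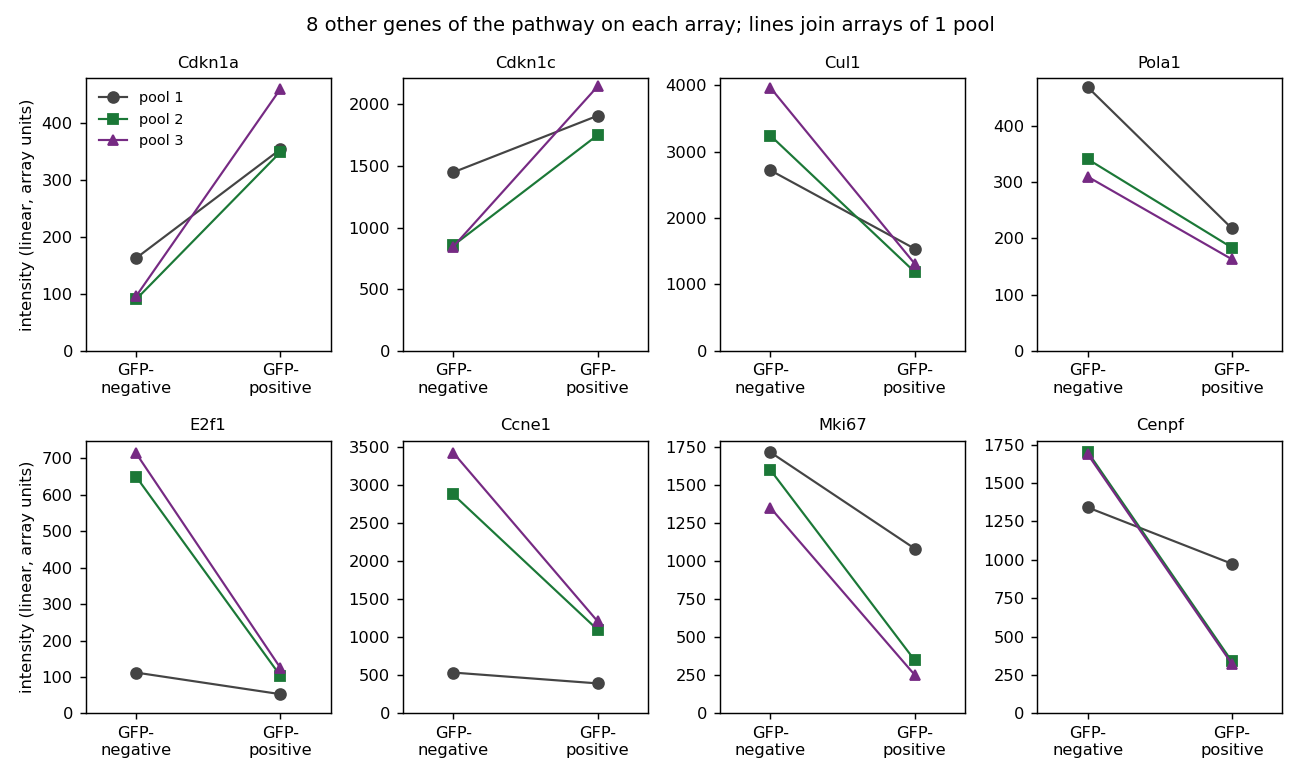
Intensity on a linear scale (y axis, starting at 0) of 8 other genes of the pathway in GFP-negative and GFP-positive cells (x axis), with a line for each pool. Lines of Cdkn1a and Cdkn1c slope up to the GFP-positive side and those of Cul1 and Pola1 down in each pool; E2f1, Ccne1, Mki67 and Cenpf have their smallest log2 difference in pool 1 (-0.76, -0.42, -0.65 and -0.45).

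The genes whose pattern over the 6 arrays was most like that of Ccnd1 shared its low values on the GFP-negative arrays of pools 2 and 3. Cnot10 (Pearson's r = 0.999), R3hcc1 (0.998), Gga1, Ptpn1 and Trmt1 (0.997 each) were the 5 highest of 12628 genes. R3hcc1, for example, had 490.5, 624.6 and 665.0 in GFP-positive and 397.5, 167.4 and 138.3 in GFP-negative cells. The 5 most like Ccnd2 were Sfrp2 (0.993), Nol3 (0.992), Msx2 (0.990), Cdx4 (0.989) and Wdr82 (0.988). Cdx4, a caudal-type homeobox factor of the posterior embryo, had 177.6, 429.2 and 289.8 in GFP-positive and 679.4, 620.9 and 572.5 in GFP-negative cells. Ccnd1 and Ccnd2 correlated with each other at -0.643. All of these values share the same 6 libraries and are given as a description.

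Markers of other cell types differed between the same groups. Counts past the adjusted threshold in limma are given first, then those by unadjusted p (0.05). The range of the summed intensity in GFP-positive and in GFP-negative cells follows. The shares of all genes past each threshold are those given for the lists of the pathway. Of the 9 endothelial and blood markers measured of 10 listed, 2 (Kdr and Tal1) were lower in GFP-positive cells, and 9 by unadjusted p and with the pool as a term, at 423.6 to 5969 against 12930 to 28080. Among them Tek (10.3 to 17.25), Cdh5 (6.02 to 15.9) and Klf1 (8.02 to 19.7) lay below the array medians in GFP-positive cells. Of 7 lateral mesoderm markers 5 (Tbx20, Foxf1, Prrx1, Gata6 and Hand2) were lower by either count, at 323.6 to 514.3 against 1941 to 4475. Of 5 surface ectoderm markers 2 (Tfap2a and Dlx5) were lower, and all 5 with Trp63, Msx1 and Gata3 by unadjusted p. Their sums were 175.7 to 224.7 against 513.3 to 706.3. Dlx5 (1.18 to 5.75 against 25.1 to 39.05) and Gata3 (2.71 to 10.3 against 25.2 to 39.7) were dim. Their GFP-positive values lie below the array medians. Of 7 presomitic and somite mesoderm markers 2 (Pcdh8 and Ripply2) were higher, and 5 with Hes7, Meox1 and Tcf15 by unadjusted p, at 3955 to 4292 against 1159 to 1446. Of 6 gut endoderm markers 2 (Trh and Apela) were higher, and 4 with Cldn6 and Epcam by unadjusted p, at 1327 to 2873 against 538.5 to 888.4; Hnf4a was lower by unadjusted p (log2 fold change of -0.85, limma adjusted p = 0.173). Trh was at 2.49 to 18.7 in GFP-negative cells and Hnf4a at 9.86 to 15.4 in GFP-positive cells, below the array medians. None of 6 neural plate markers passed in limma, and Pax6 and Olig3 were lower by unadjusted p. The sums of the neural plate markers overlapped, at 847.6 to 943.5 against 641.2 to 1167. Dlx5, Gata3, Trh, Tek and Cdh5 did not pass the filter in the fit without pool 1. They passed it in the main fit largely through the group where they were high. Their direction is therefore not an independent result. The part of cell makeup in the differences of Ccnd1 and Ccnd2 was not tested.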

How the data were processed

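RNA of 6 sorted samples, 3 GFP-positive and 3 GFP-negative, was amplified in 2 cycles and hybridised to 1-colour Affymetrix arrays, per the labels' protocols. The authors deposited linear intensity values made with GCOS 1.4, per the submitters' processing notes; a mean trimmed by 2% at each end was 150 on every array. The build and other steps are not given in the sources used here. Columns of samples not used number 0, and 64 control probe sets were left out.

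Intensities were taken to log2(value + 32), so changes of low values are understated. The filter asked for 3 of the 6 arrays at the 40th percentile of the array or higher. limma 3.58.1 in R 4.3.3 fitted the group alone (lmFit, then eBayes allowing a trend of variance with level). Benjamini-Hochberg adjustment covered all kept probe sets, with a threshold of 0.05. The fit was tested on simulated data. Summaries used Python 3.11.15. Of the probe sets 34945 had 1 gene symbol, 932 several and 9160 none; the genes behind several symbols were not named.

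Arrays of the same number came from the same pool, per the labels, which makes the samples paired; over the kept probe sets, deviations from the group means correlated within pools 1, 2 and 3 at 0.542, 0.2864 and 0.4364. Between pools the values ran from -0.5228 to 0.3802: pool 1 was set apart, while pools 2 and 3 were not told apart from each other. The pool entered as a term only in an alternative. Other alternatives were the offset, quantile normalization, the filter, the variance model, adjustment over genes, and each array or pool left out. The members and lists were chosen with earlier results of these data known. Named genes were all members, in each other list the 3 with the smallest p or, where none passed, the 2 with the largest change, every gene of a count of 5 or fewer, and the 5 most like Ccnd1 and Ccnd2. Cell type markers in counts of 5 or fewer were named as well.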

Additional observations from a re-analysis of the deposited data

How the results depend on the processing

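The log2 fold changes of Ccnd1 and Ccnd2 (brightest probe sets) kept their sign under every alternative run. Under the offset, normalization, filter and variance alternatives Ccnd1 lay between 1.58 and 1.64, and Ccnd2 between -0.80 and -0.77. The pool as a term cannot change them, since each pool gave 1 array to each group. Leaving out 1 of 3 pools cannot move a mean by as much as the spread (standard deviation) between pools. No stability is read from the size of those moves. Leaving out 1 array or 1 pool gave 1.15 to 2.32 for Ccnd1 and -0.93 to -0.59 for Ccnd2. Counts of calls did move. Of the 25 member probe sets 1 passed, against 0 without the filter and 8 with the pool as a replicate block. Leaving out 1 array or pool gave 0 to 10. By the brightest probe set of each of the 9 genes 0 passed, also when p-values were adjusted over genes. The 1 that passed, Ccnd3 1444323_at, is not the brightest of its gene. Of all kept probe sets 503 passed, against 252 without the filter, 2743 with the block and 2 to 7643 when 1 array or pool was left out; the ends were without pool 2 and without pool 1. Of the 65 list genes 2 passed, against 11 with the block and 0 to 27 when 1 array or pool was left out. The brightest probe set of a gene was chosen anew in each fit. Without the filter more dim probe sets were tested. The causes of the moves in the counts, with that one included, were not tested. With 3 arrays per group and pool 1 standing apart in control ratios, the number of arrays limits the precision, and detection calls were not used.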
